A study of Mus musculus with 17 samples.

Results

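Igf2bp3, Igf2bp2, Igf2, H19, Lin28b, Hmga2 and Arid3a are genes known for high expression in fetal and neonatal tissues, and their RNA was followed here in early thymocytes of young and older mice. These 7 genes of the 27179 in the count table were listed by symbol and chosen by their counts per 1000000 counted reads (CPM), compared between old and young DN3a thymocytes and between DN3a and DN2 thymocytes. For these 7 genes, differences by age and by stage are therefore given as descriptions with no test, and only their differences between genotypes were tested. The genotype comparisons use the same libraries as those that chose the genes. A gene chosen for a difference by age in only wild-type mice would tend to differ between genotypes too. The genotype p-values of these genes are therefore not independent of the choice.

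The study compared thymocytes of C57BL/6 mice carrying an Lmo2 transgene with those of wild-type mice of the same strain, in 17 RNA-sequencing libraries. Lmo2 encodes a bridging protein of blood stem and progenitor cells whose forced expression in thymocytes leads to T cell leukaemia. DN2 and DN3a are successive stages of T cell progenitors that still lack CD4 and CD8. No source used here names the promoter that drives the transgene or the gates of the cell sort. Young DN2 thymocytes gave 2 wild-type and 3 transgenic libraries, all from mice of 2.5 weeks. Young DN3a thymocytes gave 3 libraries of each genotype, from mice of 2.5 weeks except wild-type replicate 3, at 3 weeks. Old DN3a thymocytes gave 3 libraries of each genotype, all from females: wild-type mice of 10, 8 and 8 weeks and transgenic mice of 6, 10 and 10 weeks. The 17 libraries come from 12 mice, since 5 young mice gave both stages.

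The proteins and RNAs of this group work in 2 linked circuits. In the first, the RNA-binding protein Lin28b blocks the maturation of let-7 microRNAs in fetal progenitors, which spares let-7 targets such as Hmga2, Igf2bp3 and Arid3a. As Lin28b is silenced after birth, let-7 rises and these targets decline, and in blood this switch is known to separate fetal from adult lymphoid output. In the second, Igf2, a fetal growth factor, and H19, a long non-coding RNA, lie side by side in an imprinted domain: the paternal chromosome expresses Igf2 and the maternal one H19. Igf2bp2 and Igf2bp3 are RNA-binding proteins that were first found on Igf2 transcripts.

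The let-7 sequences are shown because the family is recognised by its seed, bases 2 to 8 of the microRNA, printed in capitals. All 9 let-7 family sequences matched in RefSeq (GRCm38.p6) have the seed of let-7a, and 4 of them are printed here, on chromosomes 13, 13, 9 and X in that order, each 5′ to 3′.
let-7a-5p: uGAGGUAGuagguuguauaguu
let-7d-5p: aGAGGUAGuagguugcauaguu
let-7g-5p: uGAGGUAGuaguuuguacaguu
miR-98-5p: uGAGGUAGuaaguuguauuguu

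The complement of that seed, CTACCTC read on the transcript's strand, was searched in the 3′ untranslated regions of GENCODE M21 transcripts on GRCm38, 1 transcript a gene. Lin28b and Hmga2 each hold 4 matches, Arid3a holds 2, Igf2bp3 and Igf2bp2 hold 1 each and Igf2 holds 0 in 3050 bases. Of 21005 genes, 9.02% hold at least 1 match and 12 hold 4 or more. Among genes whose region is 0.8 to 1.25 times as long as that of Igf2bp3 (2119 bases), 13.3% hold a match, and among those near the length of Lin28b (4445 bases) 24.3% do. The first match of each gene follows with its flanks, the match in capitals. All 5 lie in 3′ untranslated exons, and each is followed by an A. The further matches in Lin28b, Hmga2 and Arid3a, not printed, are followed by other bases. A match describes the letters only.
Igf2bp3, chr6:49086783-49086809, minus strand: tgcatttttactcaaCTACCTCaggta
Igf2bp2, chr16:22059469-22059495, minus strand: acacacaaataaaagCTACCTCaggtg
Lin28b, chr10:45381018-45381044, minus strand: acccgggcgggaagtCTACCTCatgca
Hmga2, chr10:120364220-120364246, minus strand: gccgacattcaatttCTACCTCagcat
Arid3a, chr10:79953895-79953921, plus strand: aaggcaagtttctttCTACCTCaggtc

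H19 is also the precursor of a microRNA, miR-675, whose 2 arms are printed with their seeds in capitals (chr7:142577112-142577133 and chr7:142577078-142577099, minus strand, GRCm38.p6). Neither seed is that of let-7.
miR-675-5p: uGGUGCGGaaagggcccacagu
miR-675-3p: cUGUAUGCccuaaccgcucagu
The count table holds no read for the Mir675 gene and 0 to 19 reads over all 17 libraries for each let-7 gene, so these RNA libraries give no level of either microRNA.

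Libraries held 7183303 to 11360308 counted reads, so that 1 read equals 0.0880 to 0.139 CPM. Wild-type DN2 replicate 1 had the most counted reads but the fewest genes with a read, 13028 against 14447 to 15680 in the others. It is 1 of the 2 wild-type DN2 libraries, so comparisons with wild-type DN2, and genes without a read there, rest partly on it. Lmo2 averaged 0.205, 0.301 and 0.330 CPM in wild-type DN2, young DN3a and old DN3a libraries, against 114, 33.8 and 25.3 CPM in the transgenic ones. Cd44, which marks DN2, was 19.1 to 23.2 CPM in wild-type DN2 and 1.28 to 7.20 CPM in wild-type young DN3a libraries. The 11 DN2 markers, Cd44 among them, did not part the stages when summed. In wild-type mice that sum was 3966 to 4228 CPM in DN2 and 4091 to 4735 CPM in young DN3a. In transgenic mice it was 4439 to 4908 CPM in DN2 and 3927 to 5085 CPM in young DN3a. The summed level of 15 DN3 markers was 9653 to 10072 CPM in wild-type and 5739 to 6281 CPM in transgenic DN2 libraries. In young DN3a it was 14371 to 18131 against 8723 to 10296 CPM, and in old DN3a 14302 to 16859 against 7566 to 8533 CPM, so these markers were lower in the transgenic libraries in each setting. Other markers moved with genotype too. In DN2, 10 myeloid markers summed to 15.7 to 21.3 CPM in wild-type and 116 to 148 CPM in transgenic libraries, and 9 markers of natural killer and innate lymphoid cells to 92.9 to 108 against 165 to 268 CPM. In DN3a the myeloid sum was the other way, at 18.0 to 26.7 against 4.17 to 6.25 CPM in young and 23.2 to 36.5 against 3.06 to 3.77 CPM in old mice. Elane, S100a8, S100a9 and Cd14 had no read in any library. The 8 markers of later T cell stages summed to 95.4 to 98.1 against 171 to 233 CPM in DN2, 79.3 to 90.6 against 201 to 328 CPM in young DN3a and 107 to 123 against 260.1 to 354 CPM in old DN3a. The part of these markers in the genotype differences below was not tested. In these bulk libraries, fewer cells of a type and less RNA per cell cannot be told apart. A feature with no symbol took 0.306 to 16.6% of a library's reads. In DN2 it took 0.609 and 1.33% of wild-type and 3.81, 16.6 and 12.4% of transgenic libraries. In young DN3a it took 0.306 to 4.37% against 0.876 to 13.9%, and in old DN3a 2.34 to 9.48% against 0.575 to 4.28%. Its reads stay in the library totals, so the CPM of other genes is lowered where its share is large, most of all in transgenic DN2.

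Igf2bp3 was the gene of the group that parted old wild-type from old transgenic DN3a thymocytes most in the upward direction. In wild-type DN3a libraries it stood at 65.6, 64.9 and 88.1 CPM in young mice and at 9.44, 9.59 and 10.4 CPM in old mice, a mean 7.43 times lower. Transgenic DN3a libraries held 91.9, 123 and 131 CPM in young and 126, 108 and 129 CPM in old mice. The old wild-type libraries were thus all below every other library, while the old transgenic libraries overlapped the young transgenic ones. The log2 difference of old against young from the model of all libraries was -2.83 in wild-type and -0.03 in transgenic mice. Among wild-type DN3a libraries whose names begin with a, the young ones held 65.6 and 64.9 CPM and the old one 9.44 CPM. Among those beginning with b, the young one held 88.1 CPM and the old ones 9.59 and 10.4 CPM, so the difference was as large within each letter. The DN3 marker sum overlapped between young and old wild-type DN3a libraries.

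Igf2bp3 was chosen from these same libraries, so its genotype p-values are not independent of that choice. Tested between genotypes, Igf2bp3 was higher in transgenic thymocytes in each setting. In old DN3a it rose by a log2 fold change of 3.64 ± 0.18 (SE; 3 libraries against 3, adjusted p = 7.94e-10, edgeR's quasi-likelihood test with Benjamini-Hochberg adjustment over 13534 genes). In young DN3a the change was 0.83 ± 0.16 (adjusted p = 0.00228 in the same edgeR test), with all 3 transgenic libraries above the wild-type ones. DN2 thymocytes held 66.8 and 79.9 CPM in wild-type and 92.2, 91.2 and 112 CPM in transgenic libraries, which did not overlap. That change was 0.53 ± 0.18 (adjusted p = 0.0416, edgeR), near the threshold. It missed the threshold without any 1 of wild-type DN2 replicates 1 or 2, transgenic DN2 replicates 2 or 3, wild-type young DN3a replicate 1, transgenic young DN3a replicate 2, wild-type old DN3a replicate 3 or transgenic old DN3a replicate 1. Calls of the group in DN2 also became fewer with only the groups compared, or with the unnamed feature's share as a covariate. Ordered by mean, Igf2bp3 was lowest in wild-type old DN3a (9.81 ± 0.518 CPM, SD). Wild-type young DN3a (72.9 ± 13.2) and wild-type DN2 (73.3 ± 9.24) came next and overlapped. Transgenic DN2 (98.4 ± 11.6), young DN3a (115 ± 20.7) and old DN3a (121 ± 11.4) were highest and overlapped one another.

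**Figure D1:**
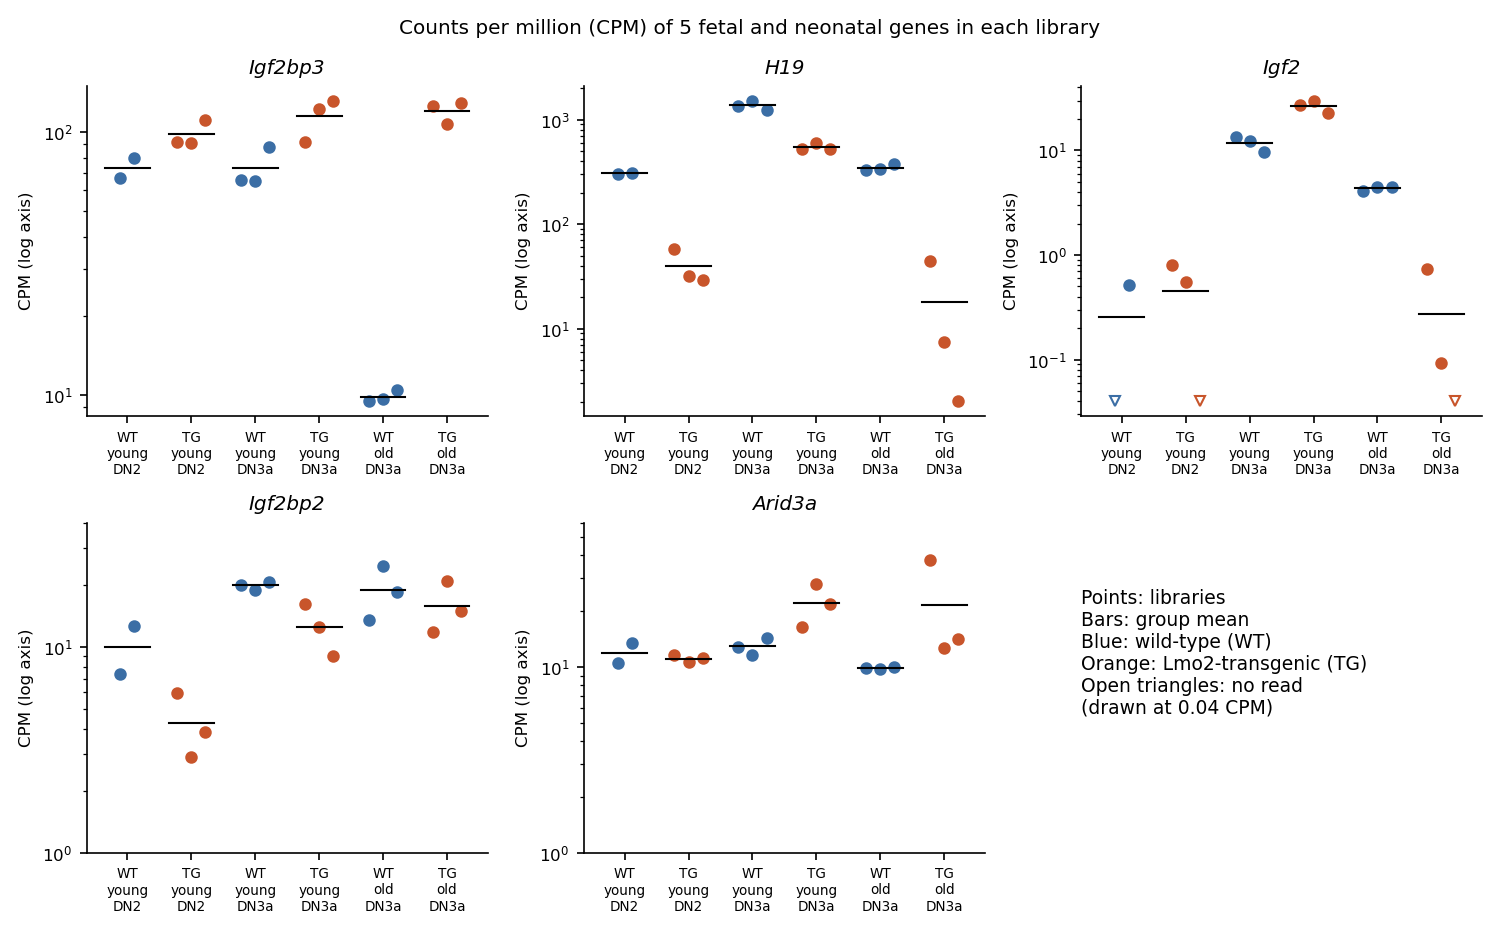
CPM of 5 genes on log axes in each library (points) of the 6 groups, with the group mean as a bar, wild-type (WT) in blue and transgenic (TG) in orange. Igf2bp3 sits between 9.44 and 10.4 CPM in old wild-type DN3a and at 64.9 CPM or more in every other library, while H19 and Igf2 reach their lowest DN3a values in old transgenic libraries.

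H19 was the most abundant RNA of the group in wild-type thymocytes, and it was lower in transgenic than in wild-type libraries in each setting. Wild-type DN2 libraries held 304 and 307 CPM and transgenic ones 57.4, 31.7 and 29.4 CPM. That fall was -2.88 ± 0.60 on the log2 scale (SE; 3 libraries against 2, adjusted p = 0.00218, edgeR with Benjamini-Hochberg adjustment). In old DN3a, wild-type libraries held 331, 333 and 379 CPM and transgenic ones 44.8, 7.41 and 2.02 CPM. These did not overlap either, and H19 fell by a log2 fold change of -4.30 ± 0.61 (adjusted p = 4.13e-05, edgeR). The old transgenic libraries spread widely: the highest came from the mouse of 6 weeks and the other two from mice of 10 weeks.

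In young DN3a, H19 reached its peak in both genotypes. Wild-type libraries held 1347, 1504 and 1245 CPM and transgenic ones 526, 592 and 520.1 CPM. The groups lay apart, but the log2 difference of -1.14 ± 0.53 did not pass the edgeR test over all libraries (adjusted p = 0.205). It passed without transgenic old DN3a replicate 1 (adjusted p = 0.00805), in a fit of only the groups compared (adjusted p = 0.00363) and with the letter that opens the library name as a covariate (adjusted p = 0.0425, all edgeR). From DN2 to DN3a in young mice H19 was 4.47 times higher in wild-type and 13.8 times higher in transgenic thymocytes, and from young to old DN3a it was 3.93 times lower in wild-type and 30.2 times lower in transgenic ones. The DN3 marker sum also rose from DN2 to DN3a in both genotypes, without overlap, and its part in this was not tested. The order of group means was transgenic old DN3a (18.1 ± 23.3 CPM), transgenic DN2 (39.5 ± 15.5), wild-type DN2 (305 ± 2.18), wild-type old DN3a (348 ± 27.4), transgenic young DN3a (546 ± 39.9) and wild-type young DN3a (1365 ± 130). Only the first pair in that order overlapped.

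Igf2, the growth factor of the imprinted pair, was all but absent from DN2 and appeared at DN3a. DN2 libraries of both genotypes held 0 to 0.796 CPM, with 5 reads in the wild-type and 12 in the transgenic libraries together. Young DN3a libraries held 13.3, 12.2 and 9.76 CPM in wild-type and 27.4, 29.7 and 23.0 CPM in transgenic mice, so that all transgenic libraries were above the wild-type ones. The log2 difference of 1.37 ± 0.50 did not pass the edgeR test over all libraries (adjusted p = 0.0964). It passed without transgenic old DN3a replicate 1, in a fit of only the groups compared and with DESeq2, with adjusted p from 0.000793 to 0.239 over all alternatives.

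In old DN3a the direction was the other way. Wild-type libraries held 4.06, 4.47 and 4.49 CPM and transgenic ones 0.733, 0.0926 and 0 CPM, or 8 reads in 3 libraries. Igf2 fell there by a log2 fold change of -3.96 ± 0.73 (SE; 3 libraries against 3, adjusted p = 0.000497, edgeR with Benjamini-Hochberg adjustment). In order of mean, both DN2 groups (0.256 ± 0.363 and 0.451 ± 0.408 CPM) and transgenic old DN3a (0.275 ± 0.399) overlapped at the bottom. Wild-type old (4.34 ± 0.241), wild-type young (11.8 ± 1.82) and transgenic young DN3a (26.7 ± 3.37) followed with no overlap. By age, mean Igf2 was 2.71 times lower in old than in young wild-type DN3a and 97.0 times lower in transgenic DN3a, with no overlap in either genotype. Without the transgenic mouse of 6 weeks, the log2 difference by age in transgenic mice moved from -6.70 to -8.85 for Igf2 and from -5.08 to -6.94 for H19. The remaining old transgenic libraries held 1 and 0 reads of Igf2, so the size of its difference there rests on 1 read. Among DN3a libraries, H19 and Igf2 stood lowest in the same old transgenic libraries in which Igf2bp3 stood at 108 CPM or more. The old transgenic libraries of 10 weeks have names beginning with b and all young transgenic ones begin with a, so letter and age cannot be told apart there. The library of 6 weeks begins with a and held 44.8 CPM of H19 against 520.1 to 592 CPM in the young ones.

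**Figure D2:**
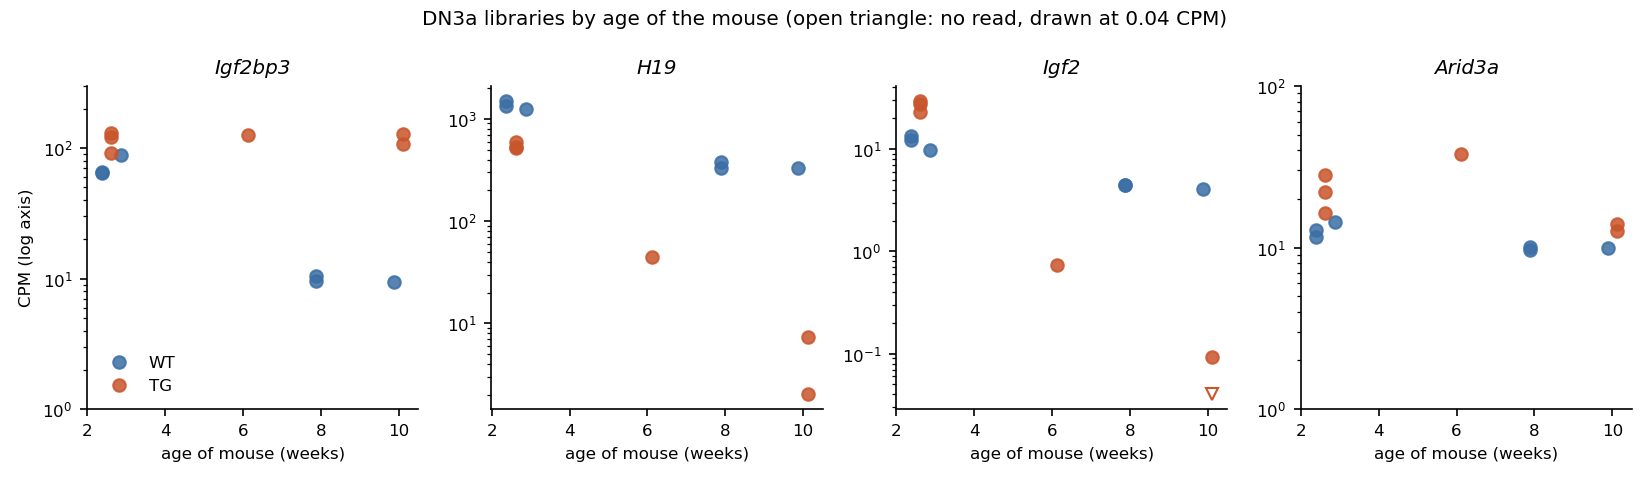
CPM on a log axis of 4 genes in the 12 DN3a libraries against the age of the mouse in weeks, wild-type (WT) in blue and transgenic (TG) in orange, each point offset slightly sideways to part the genotypes. H19 falls from 44.8 CPM at 6 weeks to 7.41 and 2.02 CPM at 10 weeks in transgenic libraries, while Igf2bp3 lies between 91.9 and 131 CPM in all 6.

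Fibroblasts, blood vessels and epithelium are the usual sources of H19 and Igf2 in other tissues, so their markers were read beside these values. Thy1, a T cell gene, and Pdgfrb had reads in these libraries and were set aside. Which cells the Pdgfrb reads came from cannot be told in bulk libraries, so a sum without it can understate fibroblast RNA. The remaining 12 fibroblast markers summed to 0.370 to 9.77 CPM in any library. They were 4.92 to 9.77 CPM in wild-type DN2, 6.07 to 8.55 CPM in transgenic DN2, 4.37 to 5.92 CPM in wild-type young DN3a and 1.47 to 2.08 CPM in transgenic young DN3a. In old DN3a they were 4.02 to 6.98 CPM in wild-type and 0.370 to 1.67 CPM in transgenic libraries, and their part in the old genotype difference was not tested. Pdgfra, Dcn, Lum, Sparc and Postn had no read in any library. The thymic epithelial factor Foxn1 had none either. The 9 genes of its list summed to 49.2 to 86.3 CPM in wild-type and 20.6 to 28.0 CPM in transgenic DN2, to 150 to 193 against 60.6 to 74.9 CPM in young DN3a and to 144 to 153 against 43.1 to 48.0 CPM in old DN3a. These sums were lower in transgenic libraries in each setting without overlap, as H19 was, and their part in its difference was not tested. Epcam made up most of the DN3a sums, at 102 to 109 CPM in wild-type and 23.3 to 29.1 CPM in transgenic old DN3a, and Krt8 and Krt14 had no read in any DN3a library. The 9 endothelial markers summed to 169 to 185 CPM in wild-type and 256 to 309 CPM in transgenic DN2. They overlapped in young DN3a and were 118 to 156 against 188 to 209.5 CPM in old DN3a, and Emcn had no read in any library.

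Igf2bp2, the close relative of Igf2bp3, did not share its pattern. Wild-type libraries held 7.39 and 12.6 CPM in DN2, 20.0, 18.8 and 20.6 CPM in young DN3a and 13.4, 24.5 and 18.4 CPM in old DN3a. Transgenic libraries held 5.97, 2.92 and 3.85 CPM in DN2, 16.0, 12.4 and 9.03 CPM in young DN3a and 11.7, 20.7 and 14.9 CPM in old DN3a. Young and old libraries overlapped in both genotypes, and DN3a libraries lay above DN2 libraries in both. Between genotypes, Igf2bp2 fell in transgenic DN2 by a log2 fold change of -1.14 ± 0.36 (SE; 3 libraries against 2, adjusted p = 0.0281, edgeR with Benjamini-Hochberg adjustment). That call was lost without wild-type DN2 replicate 2 or transgenic DN2 replicates 2 or 3, and with the title's replicate number as a block. Fits of only the groups compared, or with the unnamed feature's share as a covariate, called fewer genes of the group in DN2. The differences of -0.46 in young DN3a (adjusted p = 0.411) and -0.23 in old DN3a (adjusted p = 0.603) did not pass the edgeR test. By mean, transgenic DN2 was lowest (4.25 ± 1.56 CPM) and lay apart from wild-type DN2 (10.0 ± 3.69), which overlapped transgenic young DN3a (12.5 ± 3.50). Transgenic old (15.8 ± 4.58), wild-type old (18.8 ± 5.58) and wild-type young DN3a (19.8 ± 0.911) followed and overlapped as neighbours.

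Arid3a, a DNA-binding protein of the ARID family that supports fetal B lymphopoiesis, passed the genotype test in old DN3a only. In DN2 it was 10.5 and 13.4 CPM in wild-type and 11.5, 10.6 and 11.2 CPM in transgenic libraries, which overlapped. In young DN3a, wild-type libraries held 12.8, 11.6 and 14.4 CPM and transgenic ones 16.4, 28.0 and 21.9 CPM. The groups lay apart, but the log2 difference of 0.94 ± 0.31 did not pass the edgeR test (adjusted p = 0.0619). It passed without transgenic old DN3a replicate 1 or 2, in a fit of only the groups compared and with DESeq2. In old DN3a, wild-type libraries held 9.92, 9.70 and 10.1 CPM and transgenic ones 37.7, 12.6 and 14.1 CPM. Arid3a rose there by 1.10 ± 0.31 on the log2 scale (SE; 3 libraries against 3, adjusted p = 0.0122, edgeR with Benjamini-Hochberg adjustment), but 1 library carried most of it. Without transgenic old DN3a replicate 1, from the mouse of 6 weeks, the log2 difference was 0.47 and the adjusted p 0.152. By mean, Arid3a ran from 9.89 ± 0.177 CPM in wild-type old DN3a through transgenic DN2 (11.1 ± 0.485), wild-type DN2 (12.0 ± 2.09), wild-type young DN3a (12.9 ± 1.41) and transgenic old DN3a (21.4 ± 14.1) to transgenic young DN3a (22.1 ± 5.78). Each neighbour in this order overlapped the next, except the first.

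Lin28b, which heads the fetal circuit, and its downstream gene Hmga2 were near the limit of detection. Lin28b had 2 reads in transgenic DN2 replicate 2, 1 read in transgenic young DN3a replicate 3 and none in the other 15 libraries. Hmga2 had 6 reads in wild-type DN2 replicate 2, 2 reads in transgenic young DN3a replicate 1 and none elsewhere. Neither passed the filter on low counts, so neither was tested. A group without a read allows up to 0.0992 to 0.142 CPM (3 counts over the group, counting error only). Lin28a, the paralogue of Lin28b, had no read, and Igf2bp1, the third member of the Igf2bp family, had 1 read in 17 libraries.

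Of the 5 genes tested, Igf2bp3, H19 and Igf2bp2 passed the test between genotypes in DN2, where 25.4% of all genes did (13.4% higher and 12.0% lower in transgenic libraries). Igf2bp3 alone passed in young DN3a, where 9.83% of all genes did (4.69% higher, 5.14% lower). Igf2bp3, H19, Igf2 and Arid3a passed in old DN3a, where 30.6% of all genes did (14.9% higher, 15.7% lower). By age, 4 of the 5 had all old libraries below all young ones in wild-type DN3a (Igf2bp3, H19, Igf2 and Arid3a; 8.80% of all genes) and 2 in transgenic DN3a (H19 and Igf2; 10.9%). By stage, DN3a libraries were all above DN2 libraries for Igf2, H19 and Igf2bp2 in wild-type (27.4%) and for these and Arid3a in transgenic mice (16.1%). Those age and stage counts come from the comparisons that chose the genes, and nothing is read from them. The genotype counts rest on the same libraries, so they are not independent of that choice either.

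**Figure D3:**
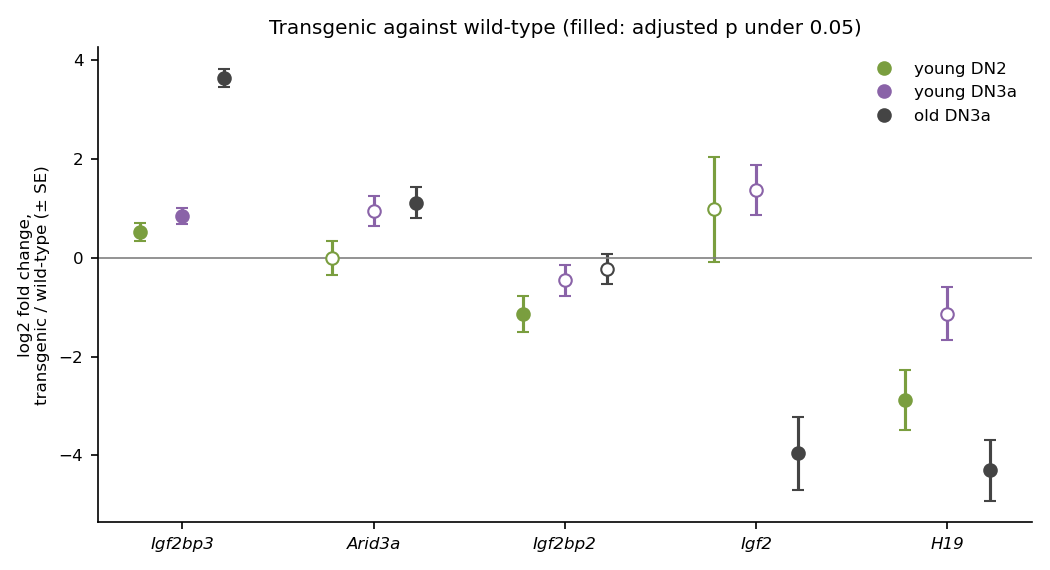
Log2 fold change of transgenic over wild-type with its standard error for 5 genes (x axis) in DN2 and in DN3a of young and old mice, filled where the adjusted p is under 0.05. Igf2bp3 is above 0 in each setting and highest in old DN3a (3.64), while H19 is below 0 in each and Igf2 changes side between young (1.37) and old DN3a (-3.96).

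Levels can be compared between genes only per length, as RPKM, the CPM value divided by the gene's length in kilobases. In wild-type young DN3a, H19 stood at 522 ± 49.8 RPKM (SD, n = 3), Igf2bp3 at 16.8 ± 3.04, Igf2bp2 at 5.08 ± 0.234, Igf2 at 2.78 ± 0.429 and Arid3a at 2.43 ± 0.265. Igf2 and Arid3a overlapped there and the other neighbours did not. In transgenic old DN3a the first place was taken by Igf2bp3, at 27.8 ± 2.61 RPKM, with H19 at 6.91 ± 8.91, Igf2bp2 at 4.05 ± 1.17 and Arid3a at 4.03 ± 2.64, which overlapped one another, and Igf2 at 0.0649 ± 0.0942.

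The genes most like each of the 5 were taken by the Pearson correlation of log2 CPM over the 17 libraries, among 11016 genes. The libraries fall into 6 groups and share depth and preparation, so these values can rest on shared group levels or on single libraries. For Igf2bp3 the first was Sox13 (r = 0.93), a transcription factor of gamma-delta T cells, followed by Cd81 (0.91), a tetraspanin of the cell surface, Mtx2 (0.89), a mitochondrial outer membrane protein, Slc22a15 (0.89) and Arvcf (0.89), a catenin. Sox13 averaged 116 ± 8.00 CPM in wild-type young DN3a and 26.7 ± 6.27 CPM in wild-type old DN3a, against 182 ± 54.8 and 202 ± 14.1 CPM in the transgenic groups. It parts from Igf2bp3 in DN2, where its transgenic libraries (80.5 to 99.3 CPM) lay below the wild-type ones (106 and 114 CPM). The other markers did not follow Sox13: the 8 gamma-delta T cell markers, Sox13 among them, summed to 937 to 1376 CPM in wild-type young and 1256 to 1534 CPM in wild-type old DN3a, which overlapped, and Il17a had no read in any library.

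**Figure D4:**
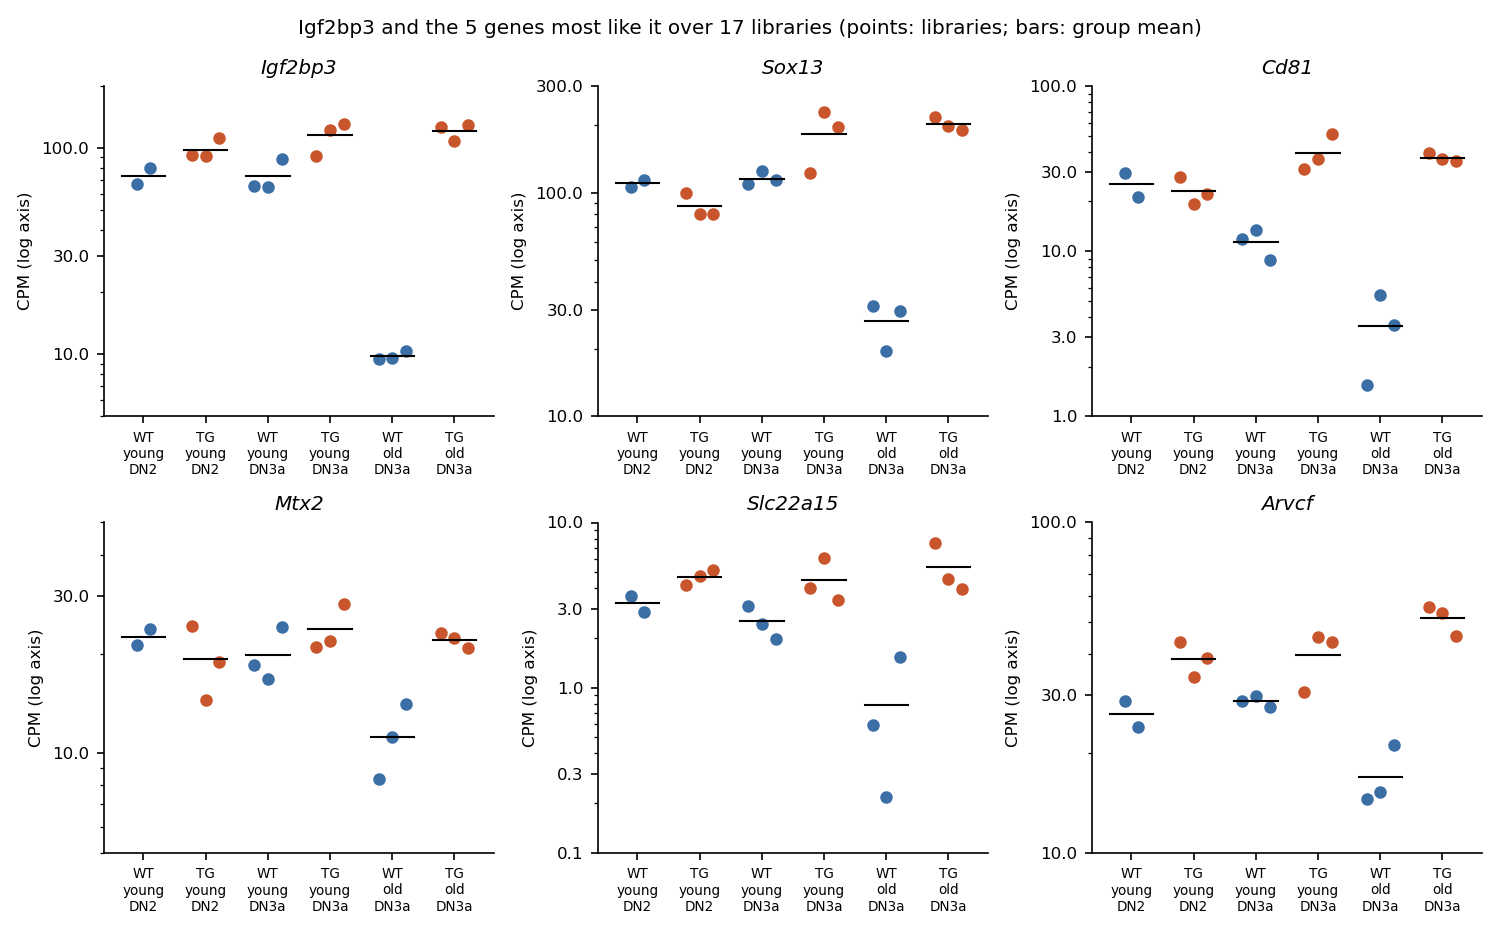
CPM on log axes of Igf2bp3 and the 5 genes with the highest correlation to it, in each library (points) of the 6 groups with the group mean as a bar, wild-type (WT) in blue and transgenic (TG) in orange. Wild-type old DN3a has the lowest mean of the 6 groups in each panel, such as 26.7 CPM for Sox13 and 3.52 CPM for Cd81.

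For H19 the most alike genes were Khdc1a (0.94), Afdn (0.92), which encodes a protein of cell junctions, and Lhfpl2 (0.90). For Igf2 they were Pdgfa (0.92), a ligand of platelet-derived growth factor receptors, Kirrel (0.88) and Rgl3 (0.88). For Igf2bp2 they included Gm15708 (0.91) and Gm16157 (0.90), and for Arid3a they were Psme4 (0.89), a proteasome activator, Bid (0.88), which promotes apoptosis, and Ryk (0.88), a Wnt receptor. Within transgenic old DN3a, Ryk spread from 0.185 to 71.0 CPM, and Arid3a had its highest library there, at 37.7 CPM.

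H19 and Igf2 lie 72621 bases apart on chromosome 7 (H19 at chr7:142575530-142578146 and Igf2 at chr7:142650768-142666816, GRCm38.p6), and a list of 21 other genes around them was read in the same tests. Of the 14 tested in old DN3a, 5 rose and 3 fell in transgenic thymocytes, a share of 8 in 14 beside 30.6% of all genes, with a median log2 change of -0.01 beside -0.04 over all genes. The list reaches 1111 kb from H19 on the Igf2 side but 188 kb on the other, so more of its genes lie on the Igf2 side. The genes that rose most lie on the Igf2 side, and the 3 that fell were Lsp1, Tnnt3 and Ctsd. Tspan32, which encodes a tetraspanin of blood cells 427 kb from H19, had no read in wild-type and 20.4 to 26.3 CPM in transgenic old DN3a, at least 197 times higher (floor of 3 counts over the group; adjusted p = 8.02e-10, edgeR). Its neighbour Cd81 rose by 3.39 ± 0.31 on the log2 scale (adjusted p = 2.97e-07, edgeR), and Osbpl5, which encodes a lipid transfer protein, by 0.89 ± 0.17. On the H19 side, 80.7 kb away, Lsp1, an actin-binding protein of leukocytes, fell by a log2 fold change of -4.83 ± 0.43 (adjusted p = 2.34e-07, edgeR), from 47.6 to 59.8 CPM in wild-type to 0.185 to 2.83 CPM in transgenic libraries.

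Some of these neighbours also passed in young thymocytes. In young DN3a, 3 of 14 passed, beside 9.83% of all genes: Tspan32 rose by 6.21 ± 0.35 and Cd81 by 1.97 ± 0.28 on the log2 scale, and Lsp1 fell by -1.87 ± 0.34. In DN2, 3 rose and 3 fell, beside 25.4% of all genes that passed. Those that rose were Tspan32 (4.02 ± 0.30), Osbpl5 (2.09 ± 0.21) and Slc22a18, a transporter gene with 52 reads in transgenic and none in wild-type libraries, at least 14.3 times higher (floor of 3 counts over the group, adjusted p = 0.00365, edgeR). Lsp1 was 152 to 269 CPM in transgenic and 106 to 107 CPM in wild-type DN2 libraries, on the other side of its DN3a direction, with no call in DN2. Ins2, which lies beyond Igf2, had no read in any library.

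**Figure D5:**
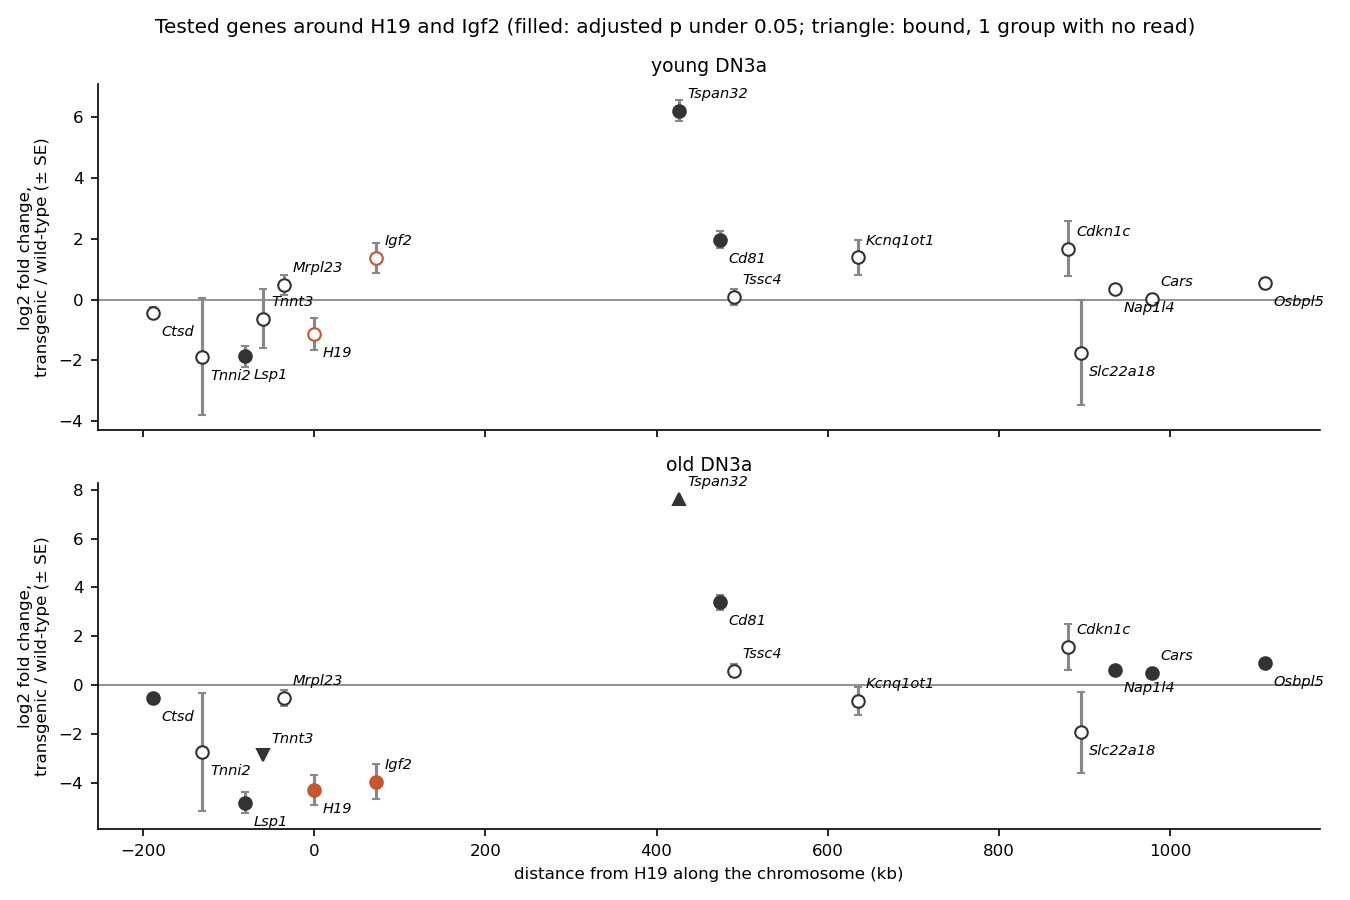
Log2 fold change of transgenic over wild-type with its standard error for the tested genes around H19 and Igf2 (orange), against distance from H19 in kb, in young DN3a (top) and old DN3a (bottom). Filled marks have an adjusted p under 0.05, and triangles stand at the bound set by 3 counts where a group had no read. In old DN3a Lsp1, H19 and Igf2 are below 0 and Tspan32 and Cd81 above it.

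Imprinted genes were read as a second list of 38, of which 17 were tested; of those tested it shares Slc22a18, Cdkn1c and Kcnq1ot1 with the list of neighbours. In old DN3a 4 rose and 2 fell, beside 30.6% of all genes that passed, with a median log2 change of 0.33 beside -0.04 over all genes. Peg13, a non-coding RNA, rose by 1.68 ± 0.27 (adjusted p = 0.000125) and its host gene Trappc9 by 0.96 ± 0.23 (adjusted p = 0.00368), while Impact, a regulator of translation, fell by a log2 fold change of -1.58 ± 0.28 (adjusted p = 0.000368, all edgeR). Peg13 lies within Trappc9, and without a stated strand their reads cannot be told apart. In DN2 Peg13 and Slc22a18, already counted above, passed (25.4% of all genes), and in young DN3a Peg13 did (9.83%), all higher in transgenic thymocytes.

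Of the IGF pathway, the receptors were read in every group. Igf1, the ligand related to Igf2, had at most 6 reads in any group. Igf1r, the signalling receptor, averaged 133 to 191 CPM over the 6 groups and passed no genotype test. Igf2r, which removes Igf2 by taking it to lysosomes, rose in transgenic old DN3a by 1.13 ± 0.24 on the log2 scale (adjusted p = 0.00137, edgeR), from 77.2 to 111 CPM in wild-type to 184 to 234 CPM in transgenic libraries. The insulin receptor gene Insr fell there by -0.71 ± 0.19 (adjusted p = 0.00920, edgeR). These were the calls among the 8 tested of 18 listed genes in old DN3a (30.6% of all genes). In DN2 3 of the 8 passed (25.4% of all genes), all higher in transgenic thymocytes, among them Irs2, an adaptor of both receptors (2.59 ± 0.64, adjusted p = 0.00681, edgeR), whose call was lost without wild-type DN2 replicate 1.

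Other let-7 targets, a list of 35 genes beside the group, gave 31 that were tested. In old DN3a 9 rose and 5 fell in transgenic thymocytes, beside 30.6% of all genes that passed, with a median log2 change of 0.25 beside -0.04 over all genes. Hmga1, the chromatin protein related to Hmga2, rose by 1.14 ± 0.21 (adjusted p = 0.000522, edgeR). Stard13, a GTPase-activating protein, rose by 5.96 ± 0.51, from 5 reads in wild-type to 382 reads in transgenic libraries. The cyclin gene Ccnd2 fell by a log2 fold change of -1.34 ± 0.23, the receptor gene Tgfbr1 by -1.04 ± 0.18 and Mycn by -1.52 ± 0.29. In DN2 5 rose and 4 fell (25.4% of all genes passed) and in young DN3a 4 rose and 2 fell (9.83%). Mycn was among those that rose in DN2 (2.38 ± 0.34, adjusted p = 9.27e-05, edgeR), so its direction there was the opposite of that in old DN3a, and the difference between these effects was not tested.

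Genes that process, load, regulate or break down let-7 or its precursors form a list of 15, all tested. Of these, 4 rose and 2 fell in old transgenic DN3a, beside 30.6% of all genes that passed. Drosha, the nuclear microRNA processor, rose by 0.82 ± 0.16 (adjusted p = 0.000819) and Ago2, an Argonaute, by 2.21 ± 0.47 (adjusted p = 0.00166, both edgeR). Ago4 had 27 reads in wild-type and none in transgenic old DN3a, at least 10.5 times lower. In DN2 3 rose and 1 fell (25.4% of all genes passed), and in young DN3a (9.83%) only Prkra, a partner of Dicer, passed (-0.78 ± 0.20). Of 15 partners and regulators of the fetal to adult switch, 11 were tested and 4 rose and 2 fell in old DN3a (30.6% of all genes passed). Ezh2, a histone methyltransferase, rose by 0.89 ± 0.18 and Arid3b, the paralogue of Arid3a, was among the others that rose. Bcl11a, a repressor known for silencing fetal haemoglobin, fell by a log2 fold change of -6.84 ± 0.64 (adjusted p = 3.68e-07, edgeR), from 16.2 to 28.4 CPM in wild-type to at most 0.523 CPM in transgenic libraries. In young DN3a Bcl11a fell by -2.70 ± 0.45 (adjusted p = 0.000679, edgeR).

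By age, of all 83 tested genes on these lists that are not in the group, 1 passed in wild-type DN3a, where 0.229% of all genes did. It was Cd81, which fell from 8.87 to 13.4 CPM in young to 1.55 to 5.45 CPM in old libraries (-1.62 ± 0.30 on the log2 scale, adjusted p = 0.0273, edgeR). That call was lost without wild-type young DN3a replicate 1 or 2 or wild-type old DN3a replicate 1 or 3. In transgenic DN3a 7 rose and 7 fell, where 7.81% of all genes passed (3.18% higher, 4.63% lower in old libraries). The count dropped to 6 without transgenic young DN3a replicate 1 or transgenic old DN3a replicate 2 or 3. Calls held under every alternative tried were those of Drosha (0.96 ± 0.16), Osbpl5 (0.89 ± 0.17), Lsp1 (-4.00 ± 0.43) and Bcl11a (-3.93 ± 0.72) among the genes named by the rule.

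By stage in young mice, 2 rose and 4 fell from DN2 to DN3a in wild-type thymocytes, where 6.56% of all genes passed (2.93% higher, 3.64% lower), and 17 rose and 13 fell in transgenic ones, where 26.0% did (12.8% higher, 13.2% lower). Tspan32 fell in both (-3.97 ± 0.40 in wild-type, -1.77 ± 0.22 in transgenic, adjusted p = 0.000141 and 2.31e-05, edgeR). The wild-type count was 1 without wild-type DN2 replicate 1 or wild-type young DN3a replicate 1 or 2, and 11 without transgenic DN2 replicate 1. Igf2r rose in transgenic DN3a by 1.46 ± 0.24 (adjusted p = 0.000202, edgeR) and was not called by stage in wild-type mice. Igf2 itself appeared at this step in both genotypes, and its relation to Igf2r was not tested.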

How the data were processed

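RNA of 17 libraries of DN2 and DN3a thymocytes was sequenced as single-end reads of 100 bases, per the labels' protocols. The authors deposited raw counts per Entrez gene. The submitters' processing notes list featureCounts and the build mm10. No source used here names the aligner, annotation or strand, so a read where genes overlap cannot be assigned with certainty. The 17 single files equalled the combined table's columns. Only 2 wild-type DN2 libraries are analysed here. Genes were named from RefSeq (25275 of 27179). Rows without a name held 0.954 to 19.9% of a library's reads and stayed in library sizes, since each has a gene identifier.

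CPM used library totals and RPKM the deposited lengths. The quasi-likelihood test of edgeR 4.0.16 (R 4.3.3) was run with TMM scaling and 1 mean per group over the 17 libraries, on the 13534 genes past the filter (minimum count 10, minimum total 15), with Benjamini-Hochberg adjustment at 0.05. The procedure was tested on simulated data. Log2 CPM used a prior count of 2, and an undetected gene a floor of 3 counts. The DN2 and DN3a libraries of 5 young mice are paired by mouse, per the labels; after removal of group means, both libraries of a mouse correlated at -0.07 to 0.19 (1 of 5 over 0.1), and the reported fit has no block. P-values measure the spread between mice within a group. The fit treats the 17 libraries of 12 mice as independent, so p-values by stage ignore the pairing of the 5 mice. The genes and the lists were chosen with earlier results of these data known. Genes named were the 7 of the group, Lmo2, defining markers, up to 4 called genes of each list with the smallest adjusted p in each comparison, of which some are printed, and the 3 genes (5 for Igf2bp3) most correlated with each, among those with a group mean of at least 5 CPM. Igf1r, Igf1, Lin28a, Igf2bp1 and Ins2 were added after their values were seen. Some genes that the rule named are not reported here. Alternatives were DESeq2 1.42.0, RLE size factors, scaling by library total, no filter, only the groups compared, sex, name letter or the unnamed feature's share as covariate, blocks by mouse or title number, and leaving out each library.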

Additional observations from a re-analysis of the deposited data

Results flagged for a closer look

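Some genes had every transgenic library on one side of the wild-type libraries in one setting and on the other side in another, and the difference between those effects was not tested. Of the group itself this held for Igf2, whose log2 difference between transgenic and wild-type was 1.37 in young DN3a and -3.96 in old DN3a. Among the other genes named it held for Lsp1, 80.7 kb from H19. Lsp1 had log2 differences of 0.92 in DN2, -1.87 in DN3a of young mice and -4.83 in DN3a of old mice, and Bcl11a had 1.31, -2.70 and -6.84. Mycn had 2.38, -0.83 and -1.52 in the same order. Between DN2 and old DN3a alone, Insr went from 0.74 to -0.71 and Ago4 from 1.74 to a bound of -3.39. In the other direction, Hmga1 went from -0.56 in DN2 to 1.14 in old DN3a, Igf2r from -0.37 to 1.13, Ezh2 from -0.99 to 0.89 and Arid3b from -0.38 to 0.64. DN2 and old DN3a differ in stage and in age, which cannot be told apart in that pair.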

How the results depend on the processing

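Of 15 genotype differences in the group, 6 kept their direction and call under every alternative tried, those of Igf2bp3 and H19 in old DN3a among them. In DN2 the count of called genes of the group, 3, became 1 in a fit of only the groups compared and 1 with the unnamed feature's share as a covariate. In young DN3a the count of 1 became 3 with DESeq2, 4 with only the groups compared and 2 with the name letter as a covariate. Leaving out each library gave 1 to 3 in DN2, 1 to 4 in young DN3a and 3 to 4 in old DN3a. For list genes, the 1 call by age in wild-type became 0 with the feature's share (0 to 1 leaving out libraries), the 14 by age in transgenic mice became 5 with the name letter (6 to 18), and the 6 by stage in wild-type became 10 with DESeq2, 3 with only the groups compared and 10 with the name letter (1 to 11). The 30 by stage in transgenic mice ranged from 22 to 33. The cause was not tested, except that fits of fewer libraries estimate the spread from fewer, and without 1 wild-type DN2 library the other is assumed to vary like the rest. The log2 difference of Arid3a in DN2, -0.0085, changed sign to 0.019 with DESeq2 and with RLE size factors, and ranged from -0.17 to 0.16 leaving out libraries. That of Igf2 in DN2, 0.97, ranged from -0.063 to 5.21 and that of Igf2bp2 in old DN3a, -0.23, from -0.46 to 0.0062. Of 90 list calls named by the rule, 61 held under every alternative and 0 changed direction. Over all genes, calls ranged from 1443 to 4341 in DN2 (3436 as reported), 733 to 1887 in young DN3a (1331), 9 to 125 by age in wild-type (31), 460 to 1556 by age in transgenic mice (1057) and 11 to 1590 by stage in wild-type (888).

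The title's replicate number matched the mouse between wild-type DN2 and young DN3a replicates 1 and 2, but not between the transgenic ones. Over all groups, same-numbered deviations correlated at -0.28 to 0.34, over 0.1 in 15 of 40 pairs. With the title number as a block, the group's count in DN2 was 2, in young DN3a 1 and in old DN3a 4. The call of Igf2bp2 in DN2 was then lost (-1.05, adjusted p = 0.0501, edgeR) and the difference of Arid3a there was 0.025. With the mouse as a block, list calls by stage were 9 in wild-type and 29 in transgenic mice, and it changed the call of no gene named by stage. Depth limits Lin28b, Hmga2 and, in DN2 and old transgenic DN3a, Igf2, each at a few reads a library.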
